A study of Mus musculus with 12 samples.

Results

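The 43 genes described here code for H/ACA small nucleolar RNAs and small Cajal body RNAs, which are guide RNAs of the nucleus and are not translated. They were chosen by name and by level: a gene symbol beginning with Snora or Scarna followed by a digit, and an RPKM (a read density scaled to gene length and to library size) above 0 in at least 1 of the 6 ribosome profiling libraries. Of 45 rows with such a name, 43 met the level rule, 34 of them Snora genes and 9 Scarna genes. They stand among 15749 genes above 0 in the same table and 25033 rows in all. The genes just inside the rule were Scarna10 and Scarna9, each with 1 read, which gave 34.2 RPKM in library LYC3 for Scarna10 and 60.4 RPKM in library LYC1 for Scarna9. Just outside it were Snora26 and Snora35, which were listed at 0 in all 6 libraries.

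The libraries came from livers of male C57BL/6 mice that were 16 weeks old and had spent 8 weeks on a high-fat diet. The first group had the high-fat diet alone (HFD1 to HFD3), and the other had the high-fat diet with lycopene, a carotenoid of tomato (LYC1 to LYC3). For LYC the treatment label gives the diet only, and lycopene stands in the sample titles. The labels state that RNA and ribosome-protected fragments were pooled by group before library construction, and the study's methods also mention pooling of the digested samples, although the study describes the libraries as biological replicates. If they were pooled, p-values measure the spread between these libraries, which may be technical. Ribosome profiling sequences the short RNA fragments that remain after RNase digestion of liver lysate. Here the digested lysate was spun through a sucrose cushion, which pellets ribosomes, and rRNA was depleted. The series also holds 3 libraries per group labelled as RNA, which makes 12 in all. In bulk liver, fewer cells of a type and less RNA per cell cannot be told apart.

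H/ACA RNAs fold into a pair of hairpins joined by a hinge (the H box, ANANNA) and closed by an ACA trinucleotide near the 3′ end. Each pairs with a target RNA and positions dyskerin (Dkc1), which turns a uridine of the target into pseudouridine. Most Snora RNAs guide this change in rRNA in the nucleolus, while small Cajal body RNAs guide it, or the methylation of a ribose, in the small nuclear RNAs of the spliceosome. In mammals most of these RNAs are cut out of introns of other transcripts, so that such a guide and its host begin in the same precursor, while some small Cajal body RNAs are transcribed on their own.

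The sequences of the genes that carry the results are shown first, so that the sequence behind each level can be seen. They are RefSeq gene sequences on the mouse build GRCm38, from 5′ to 3′ on the strand of the gene. Capitals mark the candidate H box, which is the match to ANANNA nearest to the middle of the RNA, and the last ACA near the 3′ end. The first 4 were among the 12 members with a LYC mean above 1000 RPKM, the Scarna3a and Scarna3b genes are near copies of each other, and Snora64 was the member whose LYC libraries were all lower. Snora64 was chosen for display after its values were seen. Snora69 (chrX:37082912-37083033, minus strand) lies in an intron of Rpl39, Snora16a (chr4:132309465-132309600, plus strand) and Snora44 (chr4:132309953-132310069, plus strand) lie in introns of Snhg12, and Scarna8 (chr4:86586453-86586570, minus strand) lies in an intron of Haus6. Scarna3a (chr1:159340307-159340424, plus strand) lies in an intron of Cop1, Scarna3b (chr12:80391614-80391737, minus strand) in an intron of Dcaf5, and Snora64 (chr17:24720789-24720905, plus strand) in an intron of Rps2. The annotated end of Snora44 holds no ACA, so only its H box is in capitals.
Snora69: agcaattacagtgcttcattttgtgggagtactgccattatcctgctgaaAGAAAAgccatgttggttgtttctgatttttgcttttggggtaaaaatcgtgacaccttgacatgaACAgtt
Snora16a: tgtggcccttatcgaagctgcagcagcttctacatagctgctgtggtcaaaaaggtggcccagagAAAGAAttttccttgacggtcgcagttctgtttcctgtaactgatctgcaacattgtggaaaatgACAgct
Snora44: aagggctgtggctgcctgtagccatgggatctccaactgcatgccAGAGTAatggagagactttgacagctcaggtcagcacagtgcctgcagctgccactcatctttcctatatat
Scarna8: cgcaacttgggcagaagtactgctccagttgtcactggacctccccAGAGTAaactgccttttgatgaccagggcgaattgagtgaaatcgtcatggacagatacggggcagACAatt
Scarna3a: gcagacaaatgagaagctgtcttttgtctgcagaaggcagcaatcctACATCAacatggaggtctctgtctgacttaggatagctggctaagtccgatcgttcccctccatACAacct
Scarna3b: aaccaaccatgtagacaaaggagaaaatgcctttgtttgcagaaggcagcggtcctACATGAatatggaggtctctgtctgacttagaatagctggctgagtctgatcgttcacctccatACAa
Snora64: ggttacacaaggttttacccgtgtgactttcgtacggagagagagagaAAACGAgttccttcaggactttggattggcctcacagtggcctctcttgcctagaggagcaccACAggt

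Depth differed between the groups. The library sizes implied by the RPKM scale were 834409 to 4405537 reads per HFD library and 311050 to 412115 per LYC library. The reads recovered on listed genes summed to 682543 to 4138334 in HFD and 280914 to 368708 in LYC. A single read on a member of the median length, 118 bases, was worth 1.92 to 10.2 RPKM in HFD and 20.6 to 27.2 RPKM in LYC. Hepatocyte markers (6 of 6 genes in the table) summed to 39835 to 43629 RPKM in HFD and to 25722 to 36177 RPKM in LYC. Neutrophil markers (3 of 3) summed to 2.60 to 3.67 RPKM in HFD and 18.7 to 26.7 RPKM in LYC, and cholangiocyte markers (4 of 4) to 4.36 to 5.09 and 0.775 to 2.34 RPKM. Kupffer cell, stellate cell, endothelial, erythroid, and T and B cell markers overlapped between the groups as sums, and Alas2, 1 of the 3 erythroid markers, was called higher in LYC, the only marker of any list that was called. No marker was at 0 in all 6 libraries, and the part of depth or of these cells in the results below was not tested.

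Most members with enough reads for a test were far higher in the LYC libraries. Of the 43 members, 21 were tested (16 Snora and 5 Scarna), and 17 were called higher in LYC (12 Snora and all 5 Scarna), with none called lower. Genes were called at an unadjusted p under 0.01 with a log2 fold change beyond 1 in either direction, in limma, fitted over 5643 genes on log2(RPKM divided by a TMM factor, plus 1). The background was 7.64% called higher and 5.74% called lower. The fold changes below are on this log2 scale, with the standard error from the fit of 3 libraries per group, and the RPKM values are as the authors deposited them. The median log2 fold change was 3.65 over the tested members and -0.06 over all genes. The Benjamini-Hochberg adjusted p of the 17 members in limma lay between 3.57e-06 and 0.0244. These counts describe the members and do not test them, because the members were chosen with this contrast known. The filter bears on them too, since 14 of the 21 tested members reached its minimum of 19.0 CPM (reads scaled to library size alone) in every LYC library but not in every HFD library. Of the 7 that reached it in every HFD library, 3 were called higher. On the RPKM without TMM scaling, 229 genes were higher and 651 lower by these limits, in place of 431 and 324, the median over all genes was -0.36, and the same 17 members were called. With no filter, all 15749 genes were fitted, 2.34% of them were called higher and 5.23% lower, and 22 members were called higher and none lower.

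The same split showed in the ranges of the libraries. In 22 of the 43 members every LYC library was above every HFD library, against 4.86% of the genes above 0. In 1 member, Snora64, every LYC library was below every HFD library, a pattern found in 22.7% of the genes above 0. The groups overlapped in 20 members. Mean levels passed 1000 RPKM for 2 members in HFD and for 12 in LYC. The order of the members was partly kept, with a Spearman correlation of 0.57 between the HFD and LYC means over the 43 members, which share libraries and gene lengths.

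**Figure D1:**
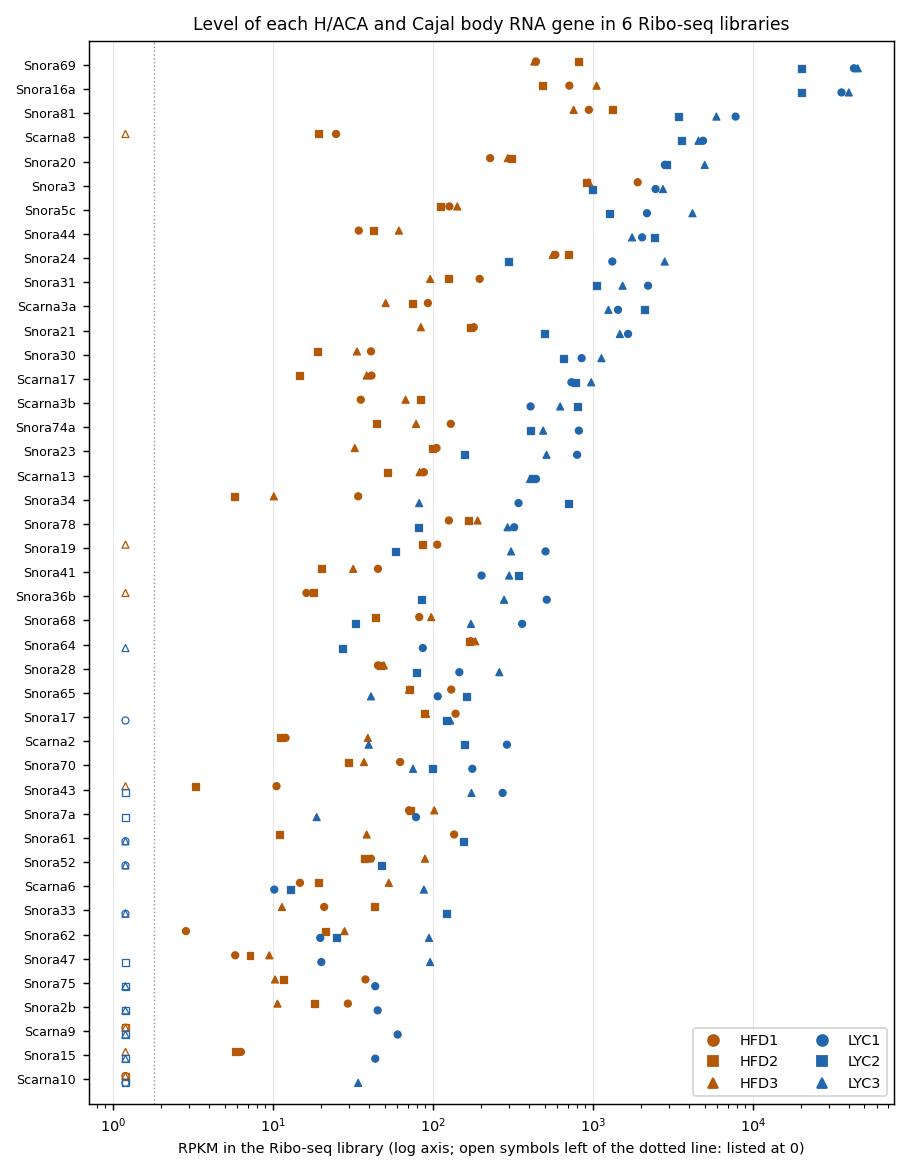
RPKM of each of the 43 members in the 3 HFD and 3 LYC ribosome profiling libraries, on a log axis, with open symbols for a listed 0. The LYC libraries of Snora69 and Snora16a lie between 20106 and 45407 RPKM, and their HFD libraries between 432 and 1057 RPKM.

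The highest LYC mean among all members belonged to Snora69, which guides a pseudouridine in 5.8S rRNA. It was at 442, 811 and 432 RPKM in HFD1 to HFD3 and at 42951, 20106 and 45407 RPKM in LYC1 to LYC3. The means were 562 ± 216 and 36155 ± 13953 RPKM (SD, n = 3), a ratio of 64.4, and the log2 fold change was 6.32 ± 0.43. The 6 values rested on 147, 436 and 44 HFD reads and on 2067, 763 and 2283 LYC reads, so every LYC library had more reads on this gene than any HFD library, although each held fewer reads in all.

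Other guides at high level also rose. Snora81, a 28S rRNA guide from an intron of Eif4a2, was at 946, 1334 and 760 RPKM in HFD and 7822, 3450 and 5933 RPKM in LYC, a log2 fold change of 2.80 ± 0.40. Snora20, an 18S rRNA guide in Tcp1, was at 229, 309 and 295 RPKM in HFD and 2826, 2899 and 5012 RPKM in LYC, or 3.99 ± 0.30. The groups were separate in both. Snora20 is annotated at 61 bases, and 7 of the members at 71 bases or fewer. RPKM is scaled to this length, so the levels of short members depend on their annotated ends. Snora5c, from an intron of Tbrg4, was at 127, 112 and 142 RPKM in HFD and 2184, 1273 and 4204 RPKM in LYC, a log2 fold change of 4.49 ± 0.42. Snora30, in Srcap, was at 41.1, 19.1 and 33.6 RPKM in HFD and 853, 661 and 1134 RPKM in LYC, or 5.14 ± 0.36. The groups were again separate in both, and differences in fold change between guides were not tested.

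Snora3, another 28S rRNA guide, from an intron of Rpl27a, had the highest HFD mean of all members and did not pass the call. Its HFD libraries stood at 1910, 914 and 949 RPKM and its LYC libraries at 2472, 991 and 2750 RPKM. The groups overlapped, and the log2 fold change was 1.02 ± 0.49. Without LYC2 it reached 1.56 and was called. Thus the member that led in HFD was passed in LYC by Snora69, Snora16a and others.

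A set of 3 members comes from a single host, the noncoding snoRNA host Snhg12. Snora16a was at 715, 484 and 1057 RPKM in HFD and 35920, 20117 and 39894 RPKM in LYC, a log2 fold change of 5.76 ± 0.43. Snora44, an 18S rRNA guide that starts downstream of Snora16a in the same transcript, was at 34.5, 42.7 and 61.5 RPKM in HFD and 2037, 2418 and 1763 RPKM in LYC, or 5.82 ± 0.27. The groups were separate for both guides. The number of Snora16a reads per Snora44 read was 24.1, 13.2 and 20.0 in HFD and 20.5, 9.67 and 26.3 in LYC, so the HFD values lay within the range of the LYC values. Snora61, which was not tested, was at 136, 11.0 and 38.7 RPKM in HFD and at 0, 156 and 0 RPKM in LYC, from 23, 3 and 2 reads and 0, 3 and 0 reads. It is named because it shares the host and was chosen after its values were seen. Snhg12 itself was at 3.63, 4.12 and 3.96 RPKM in HFD and 8.37, 0 and 4.00 RPKM in LYC, and was not tested either. The host libraries overlapped between the groups.

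**Figure D2:**
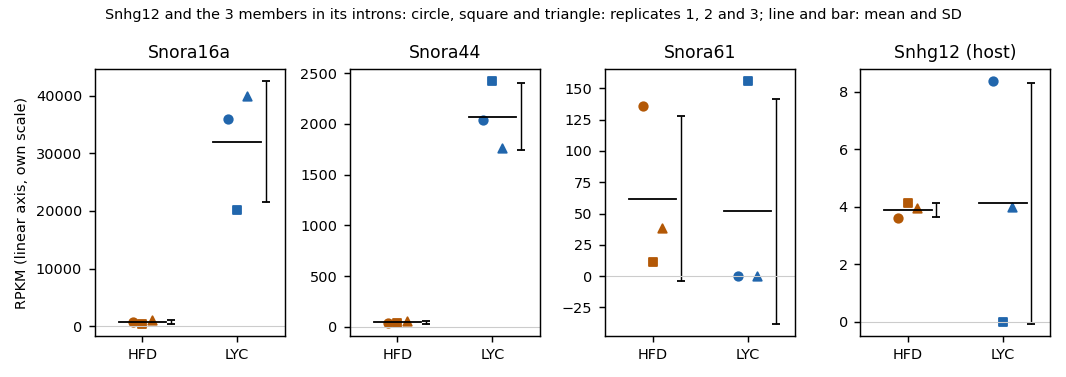
RPKM of Snora16a, Snora44, Snora61 and their host Snhg12 in each HFD and LYC library, each on a linear axis of its own scale, with the group mean (line) and SD (bar, n = 3). The HFD and LYC libraries are separate for Snora16a and Snora44 and overlap for Snora61 and Snhg12.

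Scarna8, an H/ACA guide for the U2 small nuclear RNA, had the largest fold change of the tested members. It was at 24.9, 19.2 and 0 RPKM in HFD and at 4898, 3596 and 4586 RPKM in LYC. HFD1 and HFD2 held 8 and 10 reads and HFD3 none, against 228, 132 and 223 in the LYC libraries, and in HFD3 a count of 0 allows up to 30.5 RPKM (3 reads). The log2 fold change was 9.35 ± 0.98 in limma, and with a library at 0 it depended on the value added before the logarithm, being 10.50 with 0.1 RPKM and 7.28 with 20 RPKM in place of 1 RPKM. edgeR on the recovered reads gave 8.16 ± 0.44, where the edgeR error is worked back from its F statistic. Leaving out 1 library at a time gave 7.87 to 10.17 in limma. Intervals and limits from read counts cover counting error only.

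Scarna3a and Scarna3b, which were 87.9% identical over the aligned length, both rose. Scarna3a was at 93.3, 75.0 and 50.8 RPKM in HFD and 1439, 2098 and 1254 RPKM in LYC, a log2 fold change of 4.78 ± 0.30. Scarna3b was at 35.5, 84.2 and 67.7 RPKM in HFD and 409, 804 and 626 RPKM in LYC, or 3.65 ± 0.33. The groups were separate in both, and LYC2 was the highest library of each. Reads that match both genes can be assigned to either, so their separate levels are less certain than their sum.

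The remaining tested Scarna genes rose as well. Scarna17, a C/D-type RNA that guides methylation, was at 41.4, 14.6 and 38.7 RPKM in HFD and 736, 778 and 978 RPKM in LYC, a log2 fold change of 5.13 ± 0.40. It rested on 7, 4 and 2 HFD reads and 18, 15 and 25 LYC reads. The genome holds another locus at 100% identity to it, over at least 80% of its length. Scarna13, the longest member with 275 bases and an RNA with guide regions for U2 and U5, was at 88.0, 52.0 and 82.8 RPKM in HFD and 442, 421 and 406 RPKM in LYC, or 2.87 ± 0.29. Its host Snhg10 was listed at 0 in all 6 libraries.

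The other 4 Scarna genes had too few reads for a test. Scarna2, a C/D-type RNA with no annotated host on its strand, was at 12.03, 11.2 and 39.3 RPKM in HFD and 291, 158 and 39.8 RPKM in LYC. The groups were separate, but LYC3 lay next to HFD3 and its value was 1 read. Scarna6, which has both kinds of guide domain, was at 14.8, 19.2 and 53.2 RPKM in HFD and 10.2, 13.0 and 88.1 RPKM in LYC, and the groups overlapped. Scarna9 and Scarna10 had no HFD read.

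A further 5 Snora genes were called higher, with log2 fold changes of 2.84 to 3.86, and they were chosen for naming after their values were seen. They were Snora31 (3.86 ± 0.39), Snora41 (3.45 ± 0.34), Snora21 (3.29 ± 0.51), Snora74a (3.15 ± 0.45) and Snora23 (2.84 ± 0.65). Snora21 and Snora74a guide 28S rRNA and Snora41 guides 18S rRNA. Their HFD libraries lay between 20.1 and 197 RPKM and their LYC libraries between 157 and 2218 RPKM, with the groups separate in each gene. Snora23 lost its call without LYC1, with a log2 fold change of 2.26, and without LYC3, with 2.65. The other 16 members called higher were called in all 6 fits that left out a library. LYC2 was the lowest LYC library in 10 of the 17 members called higher and the highest in 4.

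Of the tested members that were not called, Snora64 had the opposite sign. Snora64 guides 28S rRNA. It was at 172, 169 and 184 RPKM in HFD and at 86.7, 27.5 and 0 RPKM in LYC, from 55, 87 and 18 reads against 4, 1 and 0 reads. Every LYC library was below every HFD library, and the log2 fold change of -3.41 ± 1.33 did not pass the call (limma, unadjusted p = 0.0297). It was called lower without LYC1, at -4.89, and ranged from -4.89 to -1.49 over the 3 fits that left out a LYC library. It did not pass the filter when a HFD library was left out, and has no value there. edgeR gave -1.86 ± 0.71, with the error again worked back from the F statistic. Snora64 was also called lower with the replicate number as a block, at -3.41 (limma, unadjusted p = 0.00843). With LYC3 at 0, the value added before the logarithm mattered too. The log2 fold change of Snora64 was -4.53 with 0.1 RPKM, not called, and -1.82 with 20 RPKM, called lower. Its host Rps2, which codes for a protein of the small ribosomal subunit, had a log2 fold change of -0.43 ± 0.27. Snora78 lies in Snhg9 on the opposite strand of the Rps2 locus, and was at 126, 166 and 191 RPKM in HFD and 323, 81.9 and 294 RPKM in LYC, or 0.66 ± 0.52. Whether the reads were counted by strand is not given in the sources used here, so reads of the opposite genes may be shared. Snora24, an 18S rRNA guide annotated over an exon of Snhg8, was at 584, 707 and 562 RPKM in HFD and 1326, 297 and 2818 RPKM in LYC, or 1.09 ± 0.69. LYC2 was the lowest of the 6 libraries in both. Without it both were called higher, at 2.08 for Snora24 and 1.38 for Snora78. Snora24 was also called by edgeR, at 1.60, and by DESeq2. Snora78 and Snora24 were chosen after their values were seen.

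The 22 members that were not tested had 0 to 112 reads over the HFD libraries and 1 to 46 reads over the LYC libraries. The LYC mean was higher in 16 of them and lower in 6. In 5 of them, every LYC library was above every HFD library. These were Scarna2, Snora28, Snora34, Snora36b and Snora70, and the fit without a filter called the same 5 higher. Snora34 was at 34.2, 5.77 and 10.2 RPKM in HFD and 344, 708 and 82.3 RPKM in LYC. Snora36b was at 16.2, 18.1 and 0 RPKM in HFD and 516, 85.4 and 279 RPKM in LYC. By contrast, Snora52 was at 41.1, 37.3 and 89.4 RPKM in HFD and at 0, 48.0 and 0 RPKM in LYC, where 1 or 2 reads decide a value. Snora7a was at 71.1, 72.1 and 102 RPKM in HFD and 78.6, 0 and 18.8 RPKM in LYC. These 4 examples were chosen after their values were seen. In the other 17 the groups overlapped.

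Size and base composition are given as a description. The median length was 118 bases in both, over a range of 42 to 275 bases among all members, and the median GC content was 47.3% in the 17 called and 48.3% in the other 26. Over the 40 members with at least 10 reads, the Spearman correlation of the log2 ratio of mean RPKM with length was -0.14, with GC content -0.12, and with predicted folding energy per base 0.12. Over the 21 tested members, the correlation of the log2 fold change with length was -0.44. These points share libraries and are given as a description.

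The boxes of the family were read from the RefSeq sequences. An ACA lay exactly 3 bases before the annotated 3′ end in 23 of the 34 Snora members (67.6%) and in 2 of the 9 Scarna members. It ended within 6 bases of the 3′ end in 32 of the 34 Snora members (94.1%), against 14 of 86 windows of the same lengths (16.3%) taken 200 bases outside each gene on both sides. ANANNA, read on the strand of the gene and starting at bases 45 to 90, stood in 30 of the 43 members (69.8%) and in 42 of the 86 windows (48.8%), so these letters were also frequent outside the genes. The Cajal body box letters TGAG, read anywhere in the RNA, stood in 7 of the 9 Scarna members, in 20 of all 43 members (46.5%) and in 41 of the 86 windows (47.7%). An ACA 3 bases from the end was found in 11 of the 17 members called higher and in 14 of the other 26. The candidate H boxes of the Scarna3 genes, printed above, were ACATCA in Scarna3a and ACATGA in Scarna3b.

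Reads of guide RNAs with near copies are uncertain. A second genomic locus at 95% identity or more over 80% of the length was found for 12 members, 6 of them among the 17 called higher: Scarna17, Snora21, Snora30, Snora41, Snora5c and Snora81. The other 11 calls were on members without such a locus, and whether their reads were unique was not tested. Below that limit, the best other locus was at 93.3% identity for Snora44. It was at 87.9% for Scarna3a, 87.7% for Scarna3b and 86.25% for Scarna13, all among these 11.

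The levels of the hosts were not used to choose the members. Of the 43 members, 42 lie in another gene on the same strand, 40 in an intron and 2 over an exon, and 37 of these hosts were in the table (31 protein-coding and 6 noncoding, with 11 coding for ribosomal proteins). Over all genes tested, 7.64% were called higher and 5.74% lower. Of the 27 hosts tested, 4 were called higher and 3 lower, with a median log2 fold change of 0.29. These counts moved with single libraries: the number called higher was 7 without LYC3, 2 without HFD1 or LYC2, 1 without LYC1 and none without HFD3, and the number called lower was 1 without HFD1 or HFD2 and none without HFD3 or LYC2. For the members called higher, 11 hosts were tested, and their log2 fold changes lay between -1.43 and 1.58 with a median of 0.32, with 2 called higher and 2 lower.

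Rpl39, which codes for a protein of the large ribosomal subunit and carries Snora69, was called higher with a log2 fold change of 1.06 ± 0.26 (limma, adjusted p = 0.0298), against 6.32 for the guide. Ipo7, an import receptor, was called higher with 1.58 ± 0.37 (limma, adjusted p = 0.0261), and its intron holds Snora23. The hosts of the Scarna3 genes went the other way. Cop1, a ubiquitin ligase, was called lower with -1.11 ± 0.33 (limma, adjusted p = 0.0591), and Dcaf5, a substrate receptor of ubiquitin ligases, with -1.43 ± 0.42 (limma, adjusted p = 0.0558), while Scarna3a and Scarna3b were called higher. In limma the adjusted p of these 2 hosts missed 0.05. With 1 library left out, Cop1 was called only without LYC1, over a range of -1.24 to -1.04, and Dcaf5 only without LYC3, over -1.82 to -1.15. On the recovered reads, Cop1 was at -1.66 (edgeR, adjusted p = 0.00849) and Dcaf5 at -1.81 (edgeR, adjusted p = 0.0363). Rpl39 lost its call without HFD3 or LYC2 (0.85 to 1.16) and by edgeR on the recovered reads (0.97), and Ipo7 without HFD3 or LYC1 (1.33 to 1.92). Tcp1, a chaperonin subunit and host of Snora20, had 0.99 ± 0.33 (limma, adjusted p = 0.0783), and Eif4a2, a translation initiation helicase and host of Snora81, had 0.37 ± 0.28, neither of them called by limma. edgeR gave 1.02 for Tcp1 and called it. Srcap, a chromatin remodeler that hosts Snora30, had -0.78 ± 0.38, Tbrg4 had 0.29 and Rpl27a had 0.03. Haus6, the host of Scarna8, was at 1.31, 1.25 and 0.973 RPKM in HFD and 1.24, 0 and 0.788 RPKM in LYC and was not tested, and its libraries overlapped between the groups.

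**Figure D3:**
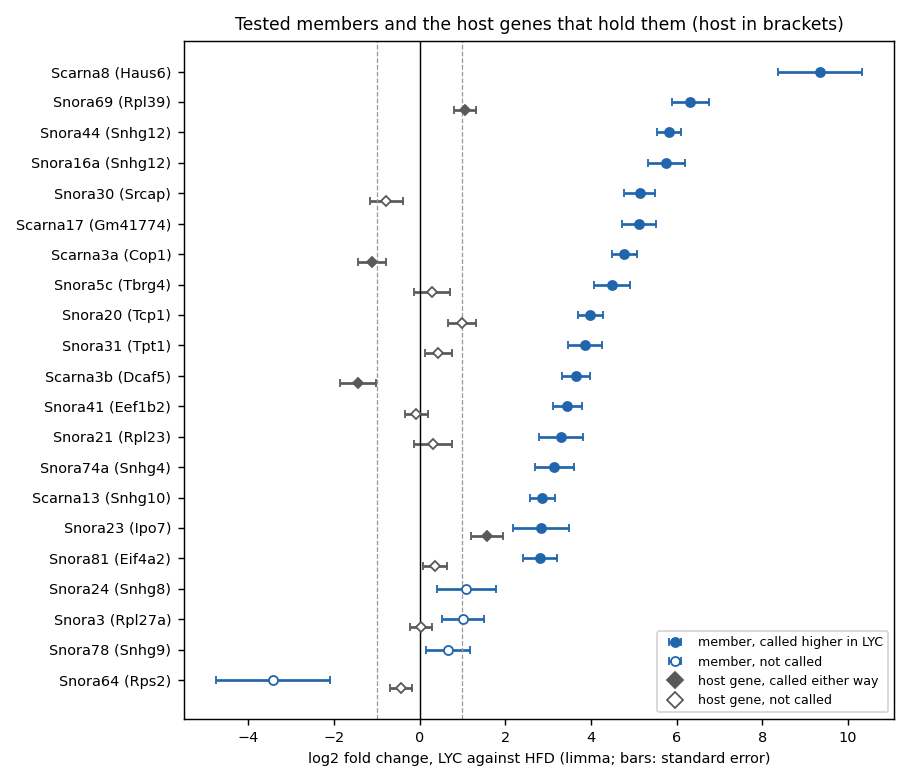
Log2 fold change of LYC over HFD with its standard error for the 21 tested members and, where tested, their hosts, with filled symbols for genes called by limma and dashed lines at 1 and -1. The members called higher lie between 2.80 and 9.35, and the tested hosts of these members between -1.43 and 1.58.

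As a share of all reads on listed genes, the 43 members were at 0.109% (exact 95% Clopper-Pearson interval 0.104 to 0.113) in HFD1, 0.0900% (0.0871 to 0.0929) in HFD2 and 0.0957% (0.0885 to 0.103) in HFD3. In LYC1 to LYC3 they were at 1.65% (1.61 to 1.69), 0.892% (0.858 to 0.928) and 1.73% (1.69 to 1.77). The HFD libraries lay close together, LYC2 lay below the other LYC libraries, and the groups were separate. The mean share was 0.0981% ± 0.00949 in HFD and 1.42% ± 0.462 in LYC (SD, n = 3), a ratio of 14.5. The Scarna members alone went from 0.00566% to 0.108%, a ratio of 19.1, and the Snora members had a ratio of 14.2. The number of Scarna reads per 100 Snora reads was 5.59, 5.26 and 7.58 in HFD and 7.20, 13.3 and 6.65 in LYC, and these overlapped.

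Snora16a and Snora69 carried much of this sum. Together they held 16.2 to 25.1% of the member reads in HFD and 64.4 to 70.8% in LYC. Without them the share was 0.0784% in HFD and 0.446% in LYC, a ratio of 5.69.

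**Figure D4:**
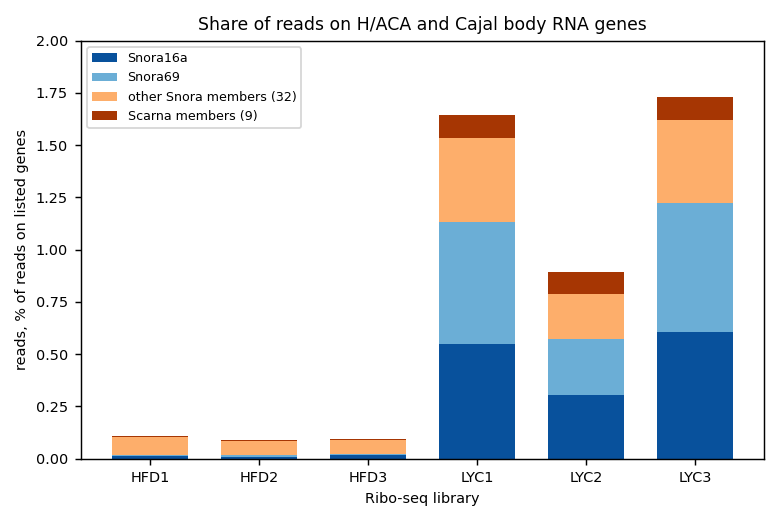
Percent of the reads on listed genes that fell on the members in each HFD and LYC library, stacked as Snora16a, Snora69, the other 32 Snora members and the 9 Scarna members. The HFD bars reach 0.0900 to 0.109% and the LYC bars 0.892 to 1.73%.

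Other small noncoding RNAs also took a larger share in LYC. The C/D-type Snord genes (74 genes), which guide methylation of rRNA, had a ratio of 4.14 between the group mean shares, microRNA genes 2.62, and all small noncoding RNA genes together went from 3.65% to 11.4%, a ratio of 3.11. For every 100 Snord reads there were 7.49, 6.96 and 9.27 member reads in HFD and 25.0, 29.5 and 28.8 in LYC. Without Snora16a and Snora69 the HFD libraries gave 6.28, 5.60 and 6.95 and the LYC libraries 7.82, 10.5 and 8.39. The groups were separate in both, by a much narrower gap without the leading pair. The part that a general change of small RNA content in the libraries has in the members' values was not tested.

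Among the proteins that bind H/ACA RNAs, Nop10 was the one tested and it rose. Nop10, a small protein that holds dyskerin on the guide, was at 28.3, 45.2 and 24.4 RPKM in HFD and 51.5, 113 and 65.8 RPKM in LYC, a log2 fold change of 1.52 ± 0.32 (limma, adjusted p = 0.0180), and it was called in all 6 fits that left out a library. The other 3 core proteins, Dkc1, Nhp2 and Gar1, had too few reads. Dkc1 was at 2.44, 4.14 and 2.94 RPKM in HFD and 6.22, 2.26 and 3.40 RPKM in LYC, with the groups overlapping. Gar1 was at 4.04, 5.00 and 7.54 RPKM in HFD and at 0, 2.53 and 1.91 RPKM in LYC. These were 14, 28 and 8 HFD reads and 0, 1 and 1 LYC reads. All 3 LYC libraries were lower, a pattern found in 22.7% of the genes above 0. None of the 4 assembly factors in the table was tested. Of 6 Cajal body proteins, 1 was tested and not called, Nolc1, a nucleolar and coiled-body phosphoprotein, with 0.36 ± 0.40 (limma, adjusted p = 0.580). Of 6 proteins of 3′ end trimming, 1 was tested and not called, the poly(A) polymerase Tent4b, with a standard error of 0.37 around a value near 0 (limma, adjusted p = 0.997). Of the 4 core proteins of C/D-type RNAs, 3 were tested and none was called: Fbl, the methyltransferase, with 0.41 ± 0.34, Nop56 with 0.44 ± 0.54 and Snu13 with -0.70 ± 0.68.

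The table labelled RNA gave nearly the same member values and is not an independent measure. Over 24586 genes in both tables, each column of the RNA table had a Pearson correlation of 0.928 to 0.958 with 1 ribosome profiling library of its own group, on log values across genes, which are not independent replicates. For LYC this was the library of the same number, and for HFD the numbers were shifted, with HFD RNA 1, 2 and 3 nearest to HFD2, HFD3 and HFD1. With the other libraries of the same group the correlation was 0.846 to 0.939, and with those of the other group 0.828 to 0.879. Of 227 member values above 0 in either table, 186 (81.9%) lay within 5% or 1 read of the matching ribosome profiling value, and the median ratio was 1.01. The members below 0.9 were Scarna3a, Snora19, Snora24 and Snora34, and those above 1.1 were Scarna3b, Snora17 and Snora2b. Scarna3a was at a ratio of 0.663 and Scarna3b at 1.32, while their sum was 381 counts in the RNA table and 427 reads in the ribosome profiling table. The members annotated over an exon were Snora24, at 0.533, and Snora47, at 1.08. Snora19, at 0.321, and Snora34, at 0.656, lie in introns, and the cause of these ratios was not tested. With edgeR, 20 members were tested in it, 16 were called higher and none lower, with a background of 9.32% called higher and 7.33% called lower over 5921 genes. All 16 were also called in the ribosome profiling table, with log2 fold changes of 2.88 to 8.10 here.

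**Figure D5:**
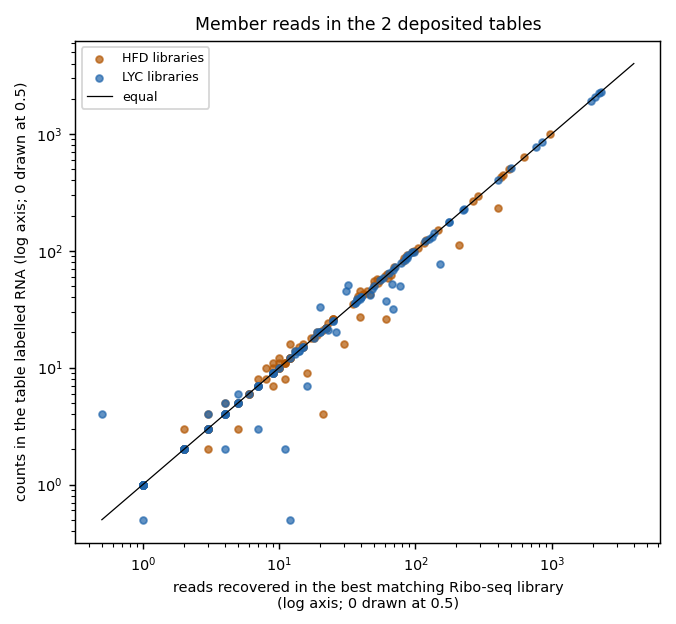
Reads on each member in each library of the ribosome profiling table against the count in the matching column of the table labelled RNA, both on log axes, with a line of equality and values of 0 drawn below 1. Of the 227 values, 186 lie within 5% or 1 read of the line.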

How the data were processed

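The liver libraries (3 HFD and 3 LYC for ribosome profiling, and as many labelled RNA) were cleaned with cutadapt and Bowtie2, aligned to mm10 (GRCm38) with STAR and counted per gene with FANSE2 by the authors, with versions and annotation release not given in the sources used here. The RPKM values of the ribosome profiling table and the read counts of the RNA table were used as the authors deposited them. The unit of the ribosome profiling table was RPKM, so the main test was limma on log values and not a count test.

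The members and all lists were chosen with earlier results of these data known. Reads were recovered from RPKM as the whole multiples of the value of a single read, with gene lengths from the counts and RPKM of the RNA table, where 74.1 to 76.2% of values came out whole within 0.05 of a read, and lengths fitted for 4459 further genes. For 42 of the 43 members the values were whole with the listed length. On simulated RPKM of 3000 genes, 100% of 12059 values were recovered. These genes were drawn from those already whole with the listed length, and the true lengths were given. The simulation therefore does not cover the genes with fitted lengths. The ribosome profiling library sizes implied by the RPKM scale were 2726201, 4405537 and 834409 reads (HFD1 to HFD3) and 394461, 311050 and 412115 reads (LYC1 to LYC3), and the RNA totals 582184 to 4730705 counts. A share of reads carries an exact Clopper-Pearson interval of counting error, and a count of 0 allows up to 3 reads. Of the rows, 4 shared a name and were left out, and 26 names had been turned into dates.

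RPKM were divided by TMM factors (0.808 to 1.18) and tested as log2(RPKM + 1) with limma 3.58.1 (trend) after edgeR's expression filter, with Benjamini-Hochberg adjustment over all 5643 genes. Genes were called at an absolute log2 fold change over 1 and unadjusted p under 0.01. On data simulated for this comparison, limma called 178 of 181 changed genes (91 of 94 at 4-fold and 87 of 87 at 8-fold) and 49 of 5370 unchanged ones. The simulation gave every gene the same dispersion (spread between libraries) and held no shift of small RNA content. These counts are therefore not error rates for the real libraries. The RNA counts were tested with edgeR 4.0.16 (quasi-likelihood). Alternatives were DESeq2 1.42.0, edgeR on recovered reads, other filters, pseudocounts and scalings, the replicate number as a block, and leaving out each library. Named were the 8 members with the highest mean RPKM, the 8 called members with the smallest p, every Scarna gene with 10 reads or more, their hosts, and every listed binding protein that was tested. Hosts, sequences and positions came from RefSeq on GRCm38, copies from blastn 2.17.0 and folding energies from RNAfold 2.7.2. Sequences on 1 chromosome are not reported here.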

Additional observations from a re-analysis of the deposited data

How the results depend on the processing

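With 17 members called higher and none lower as the reported values, the number called higher was 15 to 18 over the changes of filter strictness, pseudocount, scaling, threshold, tool and replicate block, 22 with no filter, and 16 to 24 without 1 library, the 24 coming without LYC2. Of the 17 calls, 11 were on members with no second locus at 95% identity or more, an alternative chosen after seeing the data. The number called lower was 1, Snora64, with a pseudocount of 20, with the replicate block and without LYC1 (0 to 1 over single libraries left out). The replicate numbers did not pair the libraries, since the correlations of same-numbered deviations were 0.116, 0.029 and 0.0068. With the replicate block the genes called went from 431 higher and 324 lower to 417 and 303, and 17 members were called higher. For the 14 tested members named by the rule or shown by sequence, 245 of 249 alternative values, including 2 changes of threshold per gene, kept their direction and side of the threshold, 4 passed it newly (Snora3 and Snora64), and none reversed. Outside these, Snora23 lost its call without LYC1, without LYC3, at p under 0.001 and with 10 reads in each library of a group, where Snora41 was lost too, and Snora24 and Snora78 were newly called without LYC2, Snora24 also with edgeR and DESeq2. Against 4 hosts called higher, 1 was called with no filter, 1 on RPKM as deposited, 0 with a pseudocount of 20 and 0 at p under 0.001, and 0 to 7 without 1 library. Against 3 hosts called lower, 1 was called with 10 reads in each library of a group, 1 with a pseudocount of 0.1, 0 with a pseudocount of 20, 0 at p under 0.001 and 1 at adjusted p under 0.05, and 0 to 2 without 1 library. Among the listed proteins 0 to 1 were called lower without 1 library, Snu13 without LYC2. In the table labelled RNA, 1 member, Snora64, was called lower with no filter, and 0 to 1 without 1 library. The difference in member share, 1.33 percentage points, was 1.51 over another denominator, 4.57 as a share of summed RPKM, 0.367 without Snora16a and Snora69 (added after seeing the data), and 1.17 to 1.59 without 1 library. The genes called over the whole table were 465 higher and 406 lower with edgeR on recovered reads, 503 and 383 with DESeq2, 216 and 50 with a pseudocount of 20, 369 and 823 with no filter, and 213 and 95 at p under 0.001. Without 1 library, 277 to 610 genes were called higher and 139 to 667 lower, of 4865 to 6986 genes fitted. The cause of these shifts was not tested. LYC depth limits the members with few reads, since 1 read is worth 20.6 to 27.2 RPKM there.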
